A study of Mus musculus with 7 samples.

Results

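Mouse embryonic fibroblasts (MEFs) that received a fusion of the cardiac transcription factor Mef2c with a domain of MyoD were compared with MEFs that received the same Mef2c isoform without it. The comparison set 2 of the 7 arrays of the series against each other, 1 array a group, across all 19505 genes with a name in the array's annotation. The first array, GT/M2TAD, came from MEFs infected with retroviruses for Gata4 and Tbx5 (GT) and for isoform 2 of Mef2c joined to the transactivation domain of MyoD. The second, GT/M2, came from MEFs infected with retroviruses for Gata4, Tbx5 and isoform 2 alone. Arrays of MEFs given Gata4 and Tbx5 with isoform 1 (GT/M1) or isoform 6 (GT/M6) served as reference for differences that rest on the GT/M2 array, and an array of untreated MEFs is quoted where it helps to place a level. Per the labels, fresh medium was given at 24 h and cells were collected after 1 week, and 100 ng of RNA with an integrity number over 7 was labelled. All 4 transduced arrays thus share Gata4, Tbx5 and infection, and no array carried virus without the factors. The RNA came from whole cultures, so fewer cells of a type and less RNA per cell cannot be told apart.

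Gata4, Mef2c and Tbx5 are transcription factors of the embryonic heart, and their forced expression can turn some fibroblasts towards a cardiac muscle state. Mef2c is a MADS-box factor that binds MEF2 boxes in muscle promoters and enhancers, and alternative splicing gives isoforms that differ outside the DNA-binding part. MyoD is the master regulator of skeletal muscle, and its transactivation domain recruits coactivators that include the acetyltransferase p300. The comparison asks which genes differ when that domain is added to the same Mef2c isoform.

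The values are log2 signals of probe sets on a 1-colour array, so a difference of 1 is a 2-fold difference. With 1 array a group there is no spread between replicates, no test and no p-value, and every difference below is between single arrays. A gene was counted as 2-fold apart where its log2 difference was at least 1 and its higher signal reached a floor, set on each array at the 95th percentile of its 5222 negative-control probes. The floor was 9.04 on GT/M2TAD and 8.82 on GT/M2, and 5121 genes (26.3%) and 5498 genes (28.2%) reached it. The transduced factors did not separate the arrays. Tbx5 had a signal of 16.14 on GT/M2TAD and 16.23 on GT/M2, against 5.72 in untreated MEFs, and Mef2c had 18.64 and 18.82, against 8.24. Gata4 lay below the floor on both arrays, at 4.96 and 4.39, as did Myod1, at 3.21 and 3.23. Where the probes lie relative to the viral inserts is not known here, so the Gata4 and Myod1 signals do not check the labels. Ep300, the gene for p300, was 9.98 and 9.90.

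On GT/M2TAD, 384 genes were at least 2-fold higher than on GT/M2, which is 1.97% of the 19505 genes and 6.73% of the 5702 genes that reached the floor on either array. A further 362 were at least 2-fold lower, 1.86% and 6.35%, which makes 746 genes in all (3.82% and 13.1%). Differences of 4-fold or more were found for 67 higher and 60 lower genes, of 8-fold or more for 17 and 14, and of 16-fold or more for 3 and 7. The median difference over all named genes was 0.00, and over the 5702 genes at the floor -0.05. The lower of the 2 signals lay below its array's floor in 105 of the higher genes (27.3%) and 156 of the lower genes (43.1%), so the size of those differences rests in part on background. Among negative-control probes that reached the floor on either array, 112 of 329 (34%) were 2-fold apart by the same rule. With both signals at the floor, 9.86% of 4917 genes were 2-fold apart (5.67% higher, 4.19% lower), against 9.74% of 195 such probes (7.18% higher, 2.56% lower). The share of genes 2-fold apart is thus by itself no larger than control probes gave. The results below are therefore given by groups of genes, by the size of single differences and against the reference arrays. How often control probes pass larger sizes or lie apart from all reference arrays was not counted, so these too are descriptions.

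**Figure D1:**
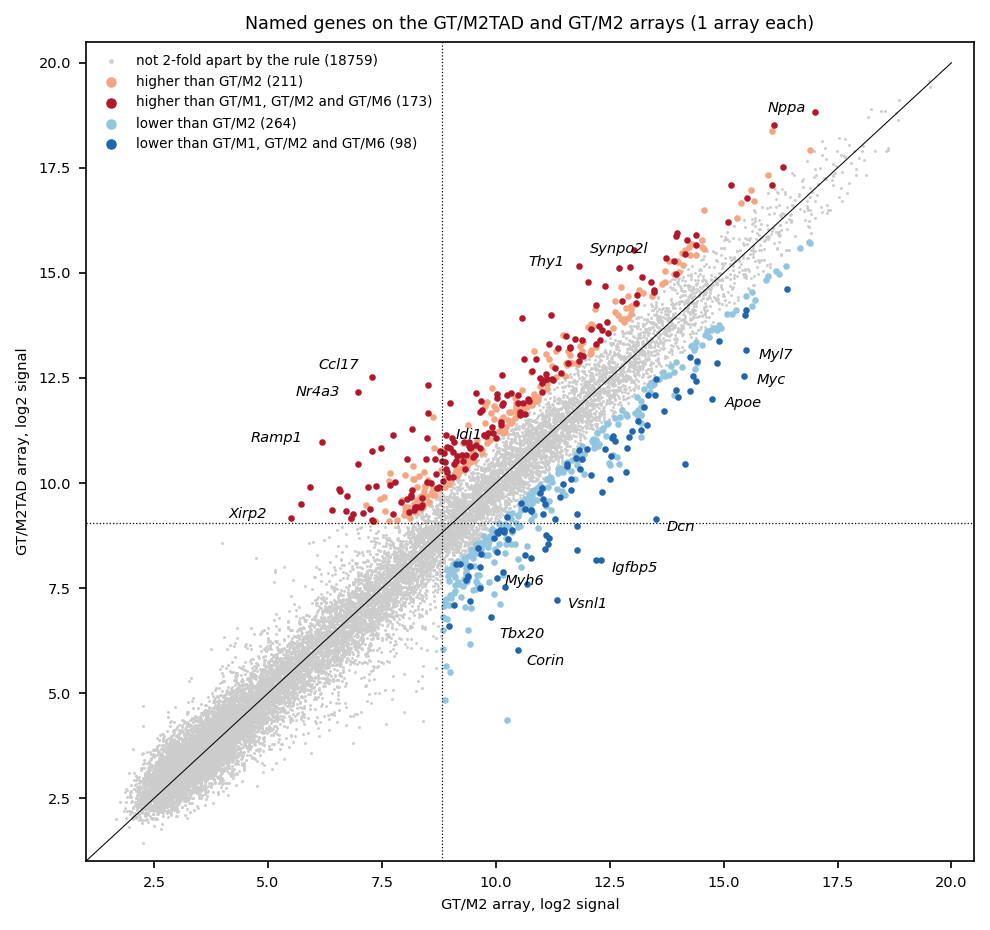
Log2 signal of each of the 19505 named genes on the GT/M2 array (horizontal axis) and on the GT/M2TAD array (vertical axis), 1 array each. Dotted lines mark the floor of each array and the solid line equal signals; 384 genes in red tones were at least 2-fold higher and 362 in blue tones at least 2-fold lower on GT/M2TAD, and the darker points are the 173 and 98 genes that lay apart from all 3 native-isoform arrays.

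The other native isoforms were used to ask how many of these differences belong to the GT/M2TAD array. All 3 comparisons share that array, so they are not independent. Against GT/M1, 442 genes (2.27%) were higher and 224 (1.15%) lower on GT/M2TAD, 3.41% in all, and against GT/M6, 324 (1.66%) and 224 (1.15%), 2.81% in all. Among the native isoforms themselves, GT/M2 was 2-fold apart from GT/M1 at 1.62% of genes and from GT/M6 at 1.81%, whereas GT/M6 and GT/M1 were apart at 0.374%. A total of 173 genes (0.887% of all named genes and 3.03% of those at the floor) were at least 2-fold higher on GT/M2TAD than on each of the 3 native-isoform arrays, which is 45.1% of the 384 higher genes. On the lower side the number was 98 (0.502% and 1.72%), 27.1% of the 362, and both directions together gave 271 genes (1.39% and 4.75%). Hereafter, 2-fold above or below all native arrays means counted in this way, with the higher signal of each pair at its array's floor. A lower gene thus needs all 3 native signals at their floors, and a higher gene the GT/M2TAD signal alone. With no floor asked against GT/M1 and GT/M6, 173 of the higher and 127 of the lower genes lay apart from all 3, so the 2 shares are not on equal terms. Of the 384 higher genes, 124 were 2-fold apart from neither GT/M1 nor GT/M6, as were 193 of the 362 lower genes. In 29 higher and 22 lower genes, GT/M2TAD had the opposite sign or no difference against GT/M1 or GT/M6. For 49 genes (0.251%) GT/M2 alone stood apart from the other 3 arrays, 18 (0.0923%) with a lower and 31 (0.159%) with a higher signal on GT/M2.

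The 5 largest differences of that last kind were all signals that stood high on GT/M2. Lgr5, a receptor for R-spondins in Wnt signalling, was 7.13 on GT/M2TAD, 10.09 on GT/M2, 7.33 on GT/M1 and 7.43 on GT/M6. The polarity gene Lrrc1 read 8.01, 10.56, 8.44 and 8.44 in the same order, and the alarmin cytokine Il33 8.50, 10.68, 9.16 and 8.80. Dctd, which supplies deoxyuridylate for thymidine synthesis, and the spindle gene Nusap1 followed, at -2.09 and -2.06 against GT/M2. On the other side, the phosphatase gene Dusp1 was 12.96 on GT/M2TAD, 12.85 on GT/M1 and 12.83 on GT/M6, and 11.17 on GT/M2. GT/M2TAD met the 2-fold rule against neither GT/M1 nor GT/M6 for these genes, though Nusap1 at 6.80 still lay below 7.71 and 7.75, and Dctd at 11.09 below 11.95 and 11.71.

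**Figure D2:**
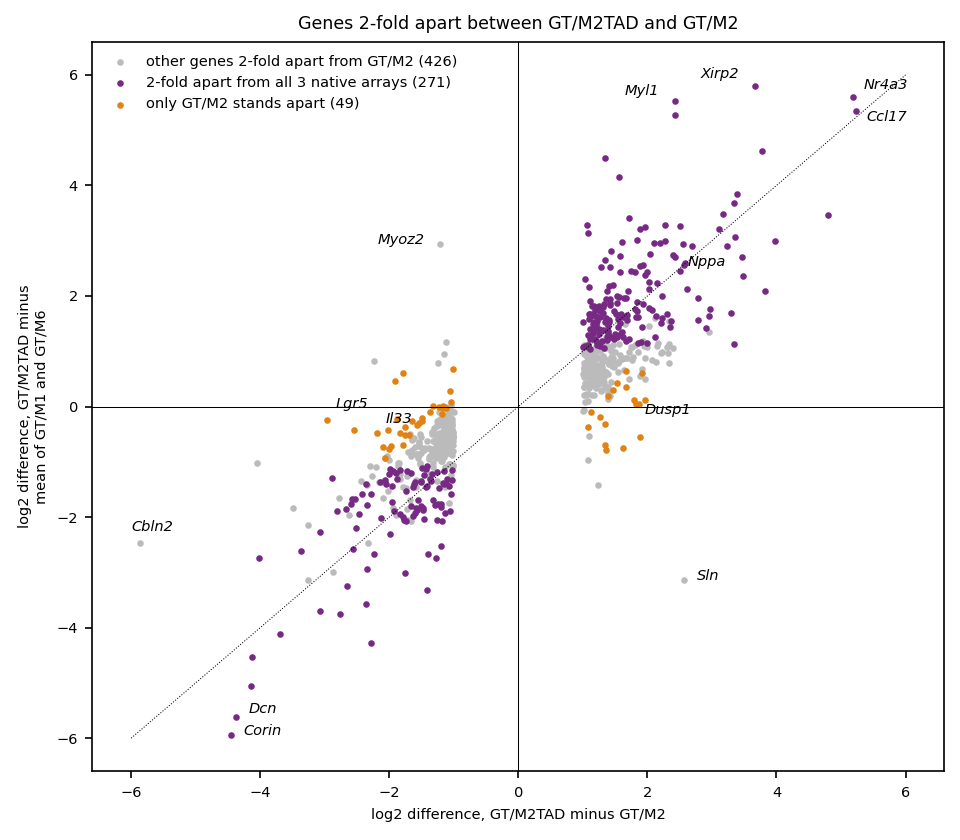
For the 746 genes at least 2-fold apart in the comparison, the log2 difference of GT/M2TAD from GT/M2 (horizontal axis) is plotted against its difference from the mean of GT/M1 and GT/M6 (vertical axis); both axes contain the GT/M2TAD array. Purple points are the 271 genes apart from all 3 native arrays and orange points the 49 where GT/M2 alone stood apart; Sln and Myoz2 lie in quadrants of opposite sign.

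Sarcomere genes were mixed, with the Z-disc higher and 2 cardiac myosin genes, Myh6 and Myl7, lower on GT/M2TAD. Of 88 measured genes of the thick filament, thin filament, Z-disc, titin and M-band, 41 reached the floor, 15 were at least 2-fold higher and 5 lower. That is 17% and 5.7% of the list, beside 1.97% and 1.86% of all named genes. Among all genes at the floor the shares were 6.73% and 6.35%. Both pairs of shares are the background for the list counts below. Lists such as collagen chains (2.4% higher and 2.4% lower) lay near the share of all named genes. The median difference of the 88 genes was 0.40, and 0.81 over the members at the floor. Of the 15 and 5 genes, 12 and 3 were also apart from both other native arrays. Among all higher and lower genes the shares were 45.1% and 27.1%. The Z-disc and costamere, where thin filaments are anchored and linked to the membrane, held 11 of the 15 higher genes among 33 measured, with 1 lower gene and a median of 0.76. Against GT/M1 and GT/M6 the Z-disc median was 0.78 and 0.74.

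Within the Z-disc group the largest difference was that of Xirp2, a Xin repeat protein that binds actin at the intercalated disc. Its signal was 9.17 on GT/M2TAD, 5.50 on GT/M2, 3.97 on GT/M1 and 2.77 on GT/M6, so it reached the floor with the fusion and on none of the native arrays. Synpo2l, an actin-bundling protein of the Z-disc, read 15.12 on GT/M2TAD, 12.70 on GT/M2, 9.50 on GT/M1 and 10.21 on GT/M6. All 4 signals were above the floor, and GT/M2 lay between the fusion and the other isoforms. Smpx, a small muscle protein linked to stretch, was 13.21 on GT/M2TAD and between 11.35 and 11.84 on the native arrays. Ldb3, the PDZ-LIM scaffold also called cypher, was 1.38 higher than on GT/M2, and Actn2, sarcomeric alpha-actinin, 1.08, with its GT/M2 signal of 8.39 below the floor. The remaining higher members were Pdlim3, Pdlim5, Pdlim1, Nexn, Vcl and Fhl1, at 1.03 to 1.36. Untreated MEFs already had Vcl at 16.57, Fhl1 at 17.19 and Pdlim1 at 16.68, so this group mixes muscle proteins with adhesion proteins that fibroblasts also make.

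Myoz2, calsarcin-1, which tethers calcineurin to alpha-actinin, was the 1 Z-disc member that was lower. It read 11.65 on GT/M2TAD and 12.86 on GT/M2, but 7.68 on GT/M1 and 9.75 on GT/M6. The fusion was thus 2-fold below isoform 2 and above both other isoforms, since Myoz2 was highest with isoform 2.

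Thick filament genes split by isoform. Of 21 measured genes, 7 reached the floor, and 2 were higher and 2 lower, all 4 also apart from GT/M1 and GT/M6. Myh6, the alpha myosin heavy chain of atrial and adult mouse cardiac muscle, was 8.21 on GT/M2TAD, under its floor, against 10.78 on GT/M2, 9.92 on GT/M1 and 11.66 on GT/M6. Myl7, the atrial regulatory light chain, was 13.16 against 15.50, 16.03 and 16.18. Both were lower with the fusion than with every native isoform. In the other direction, Myl1, the essential light chain of fast skeletal muscle, was 12.56 on GT/M2TAD, 10.13 on GT/M2, 6.77 on GT/M1 and 7.29 on GT/M6. Myl9, the regulatory light chain of smooth muscle and non-muscle myosin, was 15.87 against 13.96, 14.11 and 14.76. Myl4, the atrial essential light chain, missed the rule at 0.93, and Myh7, the beta heavy chain, was below the floor on both arrays.

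The thin filament had 2 higher and no lower genes among 21 measured, 10 of them at the floor, with a median of 0.40. Tmod1, which caps the pointed ends of thin filaments, was 10.45 on GT/M2TAD, 6.97 on GT/M2, 7.52 on GT/M1 and 8.65 on GT/M6. The 3 native signals were all under the floor. Tpm2, beta-tropomyosin, was 14.70 against 12.40, 12.69 and 13.38, and untreated MEFs had 14.88. Tnnt2, cardiac troponin T, differed by 0.84 and Actc1, cardiac alpha-actin, by -0.10, so neither was 2-fold apart. In the titin and M-band group 2 of 13 were lower. Myom2, an M-band protein, was 9.78 on GT/M2TAD, 10.97 on GT/M2, 12.09 on GT/M1 and 12.51 on GT/M6. Titin itself, Ttn, was 9.78 on GT/M2TAD and 10.93 on GT/M2, but 9.21 on GT/M1, so that difference did not hold against isoform 1.

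Promoters of 5 of these genes are shown because they carry a MEF2 box, the site of Mef2c, or a CArG box, the site of serum response factor (SRF), and because their signals lay on opposite sides. Each run is the 250 bases before the gene's start from RefSeq, assembly GRCm38.p6, 5′ to 3′ on the gene's strand, with the matched box in capitals. They are, with build positions, Synpo2l at chr14:20668355-20668604 (minus strand, box 109 to 100 bases before the start, the first of 2 start windows listed), Xirp2 at chr2:67445752-67446001 (plus strand, 74 to 65), Myoz2 at chr3:123034988-123035237 (minus strand, 33 to 24), Myl9 at chr2:156775214-156775463 (plus strand, 161 to 152) and Myl7 at chr11:5898783-5899032 (minus strand, 61 to 52). The first 3 hold a MEF2 box and the last 2 a CArG box.
Synpo2l: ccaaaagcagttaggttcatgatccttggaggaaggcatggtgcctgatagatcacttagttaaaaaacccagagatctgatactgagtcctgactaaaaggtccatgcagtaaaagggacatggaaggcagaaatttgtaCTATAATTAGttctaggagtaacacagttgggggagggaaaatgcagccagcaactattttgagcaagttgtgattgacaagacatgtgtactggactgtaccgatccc
Xirp2: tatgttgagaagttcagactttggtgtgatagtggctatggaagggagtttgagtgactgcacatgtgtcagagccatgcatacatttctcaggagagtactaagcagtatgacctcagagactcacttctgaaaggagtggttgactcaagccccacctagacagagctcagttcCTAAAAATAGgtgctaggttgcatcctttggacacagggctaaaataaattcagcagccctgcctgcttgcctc
Myoz2: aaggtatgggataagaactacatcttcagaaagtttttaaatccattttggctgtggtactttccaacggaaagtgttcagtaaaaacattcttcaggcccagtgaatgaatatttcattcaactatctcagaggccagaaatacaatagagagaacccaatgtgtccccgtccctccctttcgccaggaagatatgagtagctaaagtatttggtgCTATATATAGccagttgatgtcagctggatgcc
Myl9: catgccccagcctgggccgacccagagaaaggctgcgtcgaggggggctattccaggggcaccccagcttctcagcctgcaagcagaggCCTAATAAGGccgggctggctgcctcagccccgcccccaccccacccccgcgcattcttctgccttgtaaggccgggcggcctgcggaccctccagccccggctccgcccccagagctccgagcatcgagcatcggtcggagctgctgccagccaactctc
Myl7: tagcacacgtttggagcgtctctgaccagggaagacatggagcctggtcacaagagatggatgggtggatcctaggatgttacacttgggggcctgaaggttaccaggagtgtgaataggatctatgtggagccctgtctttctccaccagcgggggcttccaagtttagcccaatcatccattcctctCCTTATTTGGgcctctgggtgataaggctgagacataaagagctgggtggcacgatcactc

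Promoter matches of this kind were counted on both strands in the same window for the 15691 named genes with a promoter in the table, of which 309 were 2-fold higher and 288 lower. A MEF2 box was present in 8 of the higher genes (2.59%) and 8 of the lower genes (2.78%), against 2.64% of all promoters and 1.36% of the 4696 promoters of genes at the floor. Higher genes with a match were Xirp2, Synpo2l, Nr4a2, Casq2, Inhba, Clic5, Ccdc141 and Slc38a7, and lower ones included Myoz2, Ttn, Kif2c, Ccnb2 and H3c11. A CArG box was present in 6 higher (1.94%) and 10 lower genes (3.47%), against 1.34% of all promoters and 1.43% at the floor. The higher 6 were Myl9, Vcl, Ldb3, Fhl1, Cnn2 and Tmem63a, and Myl7 and Lama2 were among the lower 10. The E-box CAGCTG, a site that MyoD-family factors bind, was found in 51 higher (16.5%) and 33 lower genes (11.5%), against 11.9% of all and 10.5% at the floor. TATAAA was found in 8.41% of higher and 9.72% of lower genes, against 12.2% and 6.07%. These are matches of letters in 1 short window, and enhancers were not searched.

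Natriuretic peptides and cardiac stress genes included 4 higher and 1 lower of 18 measured, 12 of them at the floor, with a median of 0.54. Nppa, atrial natriuretic peptide, was 18.52 on GT/M2TAD, 16.10 on GT/M2, 16.77 on GT/M1 and 14.88 on GT/M6. Its sister Nppb reached the floor on GT/M2TAD alone among the 4 transduced arrays without siRNA, at 9.25, with 6.86, 7.13 and 5.88 on the native arrays. Corin, the protease that cleaves the atrial peptide precursor, went the other way, at 6.03 on GT/M2TAD against 10.48, 12.00 and 11.97. The hormone gene was thus highest and its processing enzyme lowest with the fusion, among the transduced arrays without siRNA. Timp1, a protease inhibitor, was 2.79 and the matricellular gene Postn 1.85 above GT/M2, but Postn was 9.89 on GT/M6 and 10.17 on GT/M2TAD.

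Cardiac transcription factors were not higher as a group: of 38 measured, 14 at the floor, none was 2-fold higher and 3 were lower, and the median was 0.00. Tbx20, a T-box factor of the early heart, was 6.82 on GT/M2TAD against 9.90 on GT/M2, 11.23 on GT/M1 and 9.80 on GT/M6. It was the 1 factor of the list 2-fold below all native arrays. Tbx2, a T-box repressor of chamber genes, was -1.70 and the homeobox gene Meis1 -1.06 against GT/M2. Skeletal muscle genes, the natural targets of MyoD, were mostly below the floor. Of 40 measured, 6 reached the floor, 1 was higher (Myl1) and 1 lower (Ttn), and the median was 0.02. Myog, the myogenin gene, was 4.13 and 3.84, and Ckm, muscle creatine kinase, 7.45 and 7.27, all below the floor.

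Calcium handling and channel genes held few differences that the reference arrays shared. Of 23 measured calcium genes, 3 were higher and none lower, and none of the 3 was 2-fold above all native arrays. Sln, sarcolipin, an inhibitor of the calcium pump, was 10.24 on GT/M2TAD and 7.67 on GT/M2, but 13.65 on GT/M1 and 13.09 on GT/M6. The fusion was above isoform 2 and far below the other isoforms. Casq2, which buffers calcium in the sarcoplasmic reticulum, was 14.34 against 12.62, 12.96 and 14.71, and Ryr2, the release channel, differed by -0.47. Of 29 channel and transporter genes, 4 at the floor, 2 were higher and 2 lower. Atp1b1, a sodium pump subunit, was 1.50 above GT/M2 and 2-fold above all native arrays, and the calcium channel Cacna1c 1.50. The potassium channel Kcnh2 was 8.18 on GT/M2TAD and 10.48 on GT/M2, with 9.46 and 9.07 on the other arrays, and the sodium channel subunit Scn3b was -1.16. Of 17 connexin and intercalated disc genes, Popdc2 was higher and Pkp2 lower, and for both GT/M2 alone stood apart.

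Smooth muscle contractile genes were mostly above GT/M2 on GT/M2TAD. Of 24 measured, 23 differed above 0, 15 reached the floor, 7 were 2-fold higher and none was lower, with a median of 0.96. The median was 0.98 against GT/M1 but 0.38 against GT/M6, and 3 of the 7 (Tpm2, Myl9 and Fhl1) were 2-fold above all native arrays. Actg2, enteric actin, was 13.51 on GT/M2TAD, 11.48 on GT/M2, 11.50 on GT/M1 and 12.60 on GT/M6. Cnn1, calponin, was 11.38 against 9.39, 10.42 and 10.18, and Tagln, transgelin, 15.48 against 14.08 on GT/M2 and 15.68 on GT/M6. Tagln on GT/M2TAD therefore did not exceed GT/M6. Untreated MEFs had higher signals of all 3, at 16.86, 15.63 and 17.28. Myh11, smooth muscle myosin, was 8.79 on GT/M2TAD and 6.72 on GT/M2, both under the floor.

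The wider actin cytoskeleton tied to SRF and its cofactors of the MRTF family showed the same direction. Of 31 measured genes 29 reached the floor, 8 were higher and none lower, and the median was 0.59. Mrtfa, the cofactor that senses free actin, was itself 9.27 on GT/M2TAD and under the floor on GT/M2, GT/M1 and GT/M6, at 7.74, 7.12 and 7.41. Ccn2, connective tissue growth factor, was 17.08 against 15.15, 15.01 and 15.44. Thbs1, thrombospondin-1, was 18.83 against 17.00, 16.91 and 17.52. These 3, with the actin elongation factor Enah (1.35) and the fibronectin receptor subunit Itga5 (1.84), lay 2-fold above all native arrays. Palld (1.26), Vcl (1.28) and Cnn2 (1.03), which organise actin bundles and adhesions, were within 2-fold of both GT/M1 and GT/M6.

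Receptors of the Nr4a family, orphan nuclear receptors that many stimuli induce within the hour, held the second largest difference among the higher genes. Nr4a3 was 12.17 on GT/M2TAD, 6.98 on GT/M2, 6.79 on GT/M1, 6.36 on GT/M6 and 5.52 in untreated MEFs. Nr4a1 was 9.90 against 7.21, 7.19 and 6.81, and Nr4a2 9.96 against 7.68, 6.25 and 7.12. All 3 family members reached the floor with the fusion and none did on the native arrays. The list of immediate early genes held 34 measured genes, the 3 receptors included, 18 of them at the floor. Of the 34, 6 were higher, the 3 receptors among them, and 1 was lower. The list median was 0.48 against GT/M2 but 0.19 and 0.17 against GT/M1 and GT/M6. The other higher members, Dusp1 (1.79, described earlier), Fosl2 and Ier3, differed less than the receptors. Fos differed by -0.01, Egr1 by 0.63 and Atf3 by 0.21. Ier3, an early gene linked to cell survival, was 1.11 higher and 2-fold above all native arrays, and the AP-1 gene Fosl2 was 1.14 higher. Myc, a driver of growth and proliferation, was the 1 lower member, at 12.56 on GT/M2TAD against 15.44 on GT/M2, 14.08 on GT/M1 and 13.62 on GT/M6.

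Secreted signals and their receptors supplied many of the leading higher genes. Ccl17, a chemokine that attracts T cells through Ccr4, had the largest difference on the higher side, with 12.52 on GT/M2TAD, 7.29 on GT/M2, 6.59 on GT/M1 and 7.76 on GT/M6. That is a 37.7-fold difference from GT/M2, and because the native signals were below background its size is not firm. It stood alone among chemokines: of 46 chemokine and cytokine genes, 5 reached the floor, and Ccl17 was the 1 that was higher. Ramp1, which turns the calcitonin receptor-like receptor into a receptor for CGRP, was 10.97 against 6.18, 7.15 and 7.86. Ptgs2, cyclooxygenase-2, was 9.90 against 5.92, 6.62 and 7.17, while untreated MEFs had 15.29. S1pr1, a receptor for sphingosine-1-phosphate, was 9.28 against 7.09, 5.93 and 6.71. Those 3 with Rgs16 (1.21), which shortens G protein signals, were the 4 higher of 41 G protein signalling genes, of which 5 reached the floor and none was lower. C3ar1, the receptor of complement fragment C3a, was 9.51 against 5.73, 5.30 and 4.46. Apart from Rgs16, the native signals of the genes in this group lay under the floor.

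Growth factor ligands and receptors differed in both directions. Of 45 ligands and receptors, 19 at the floor, 7 were higher and 3 lower, and the median was -0.19. Pgf, placental growth factor, was 11.67 on GT/M2TAD, 8.50 on GT/M2, 7.86 on GT/M1 and 8.53 on GT/M6. Its receptor Flt1 was 15.55 against 13.04, 11.72 and 12.84, so ligand and receptor were both 2-fold above all native arrays. The Egf-receptor ligands Ereg and Hbegf were 10.75 and 11.95 on GT/M2TAD, 7.29 and 9.68 on GT/M2, 7.62 and 9.29 on GT/M1, and 8.47 and 8.63 on GT/M6. The neurotrophin Bdnf (1.44) was 2-fold above all native arrays too. Fgf2 (9.66) and the neuregulin Nrg1 (9.50) were 2-fold above GT/M2 (7.54 and 8.21) but not above GT/M6 (8.75 and 9.97) by that size. Vegfd, a lymphatic growth factor, was lower than on every native array (-1.66 from GT/M2), and Angpt1 (-2.27) was lower than on GT/M2. Fgf9 was -2.34 from GT/M2 (8.84) and over 2-fold below GT/M1 (9.06) and GT/M6 (8.88) too, with the GT/M1 and GT/M6 signals under their floors.

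In the Tgf-beta and Bmp family, 5 of 44 measured genes were higher and 2 lower, with a median of 0.13. Inhba, the activin A subunit, was 11.90 on GT/M2TAD, 8.99 on GT/M2, 10.34 on GT/M1 and 10.60 on GT/M6, well below the 16.48 of untreated MEFs. The activin antagonists Fst and Fstl3 were higher as well, by 2.34 and 2.11. Ligand and inhibitors thus lay on the same side of GT/M2, and Inhba and Fstl3 lay 2-fold above all native arrays. Tgfb3 was 1.56, and the Bmp antagonist Grem1 10.16 against 8.93, but lower than the 11.48 and 11.66 of the other isoforms. Bmp6 was 7.20 against 9.43, 10.01 and 9.72, and Bmp3 -1.73 from GT/M2.

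Insulin-like growth factor genes diverged by member. Of 17 measured, 3 were higher and 2 lower. Igfbp5, a binding protein held in the matrix, was 8.18 on GT/M2TAD, 12.31 on GT/M2, 13.90 on GT/M1 and 12.57 on GT/M6, and Igfbp4 was -1.07 from GT/M2. Both were lower than on every native array. Igf1 itself was 11.83 against 9.76 on GT/M2, and 11.83 on GT/M6, so it matched isoform 6. Igfbp7 was 2.32 and Igfbp2 1.00 above GT/M2. Of 48 Wnt pathway genes, the R-spondin Rspo3 was higher (12.09 against 10.49, 8.53 and 9.71) and the secreted inhibitor Sfrp1 lower (10.84 against 12.89, 12.55 and 11.94), both relative to all native arrays, beside Lgr5, described earlier. None of 23 Notch pathway genes was 2-fold apart, with 2 at the floor.

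**Figure D3:**
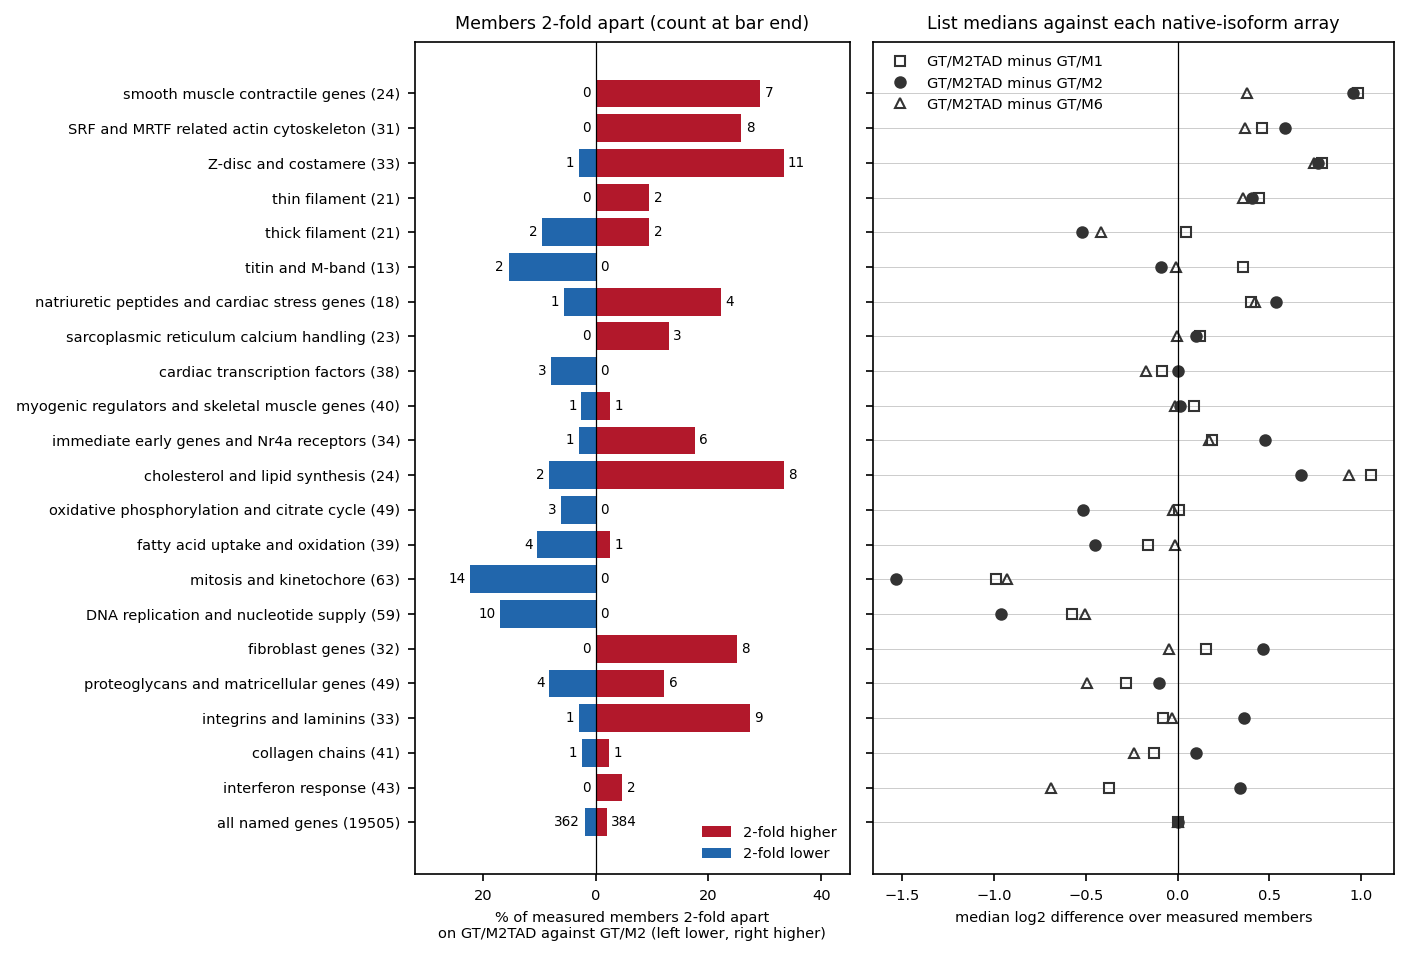
Left, for 21 gene lists and all named genes (number measured in brackets), the percentage of measured members at least 2-fold higher (red) or lower (blue) on GT/M2TAD than on GT/M2, with counts at the bar ends. Right, each list's median log2 difference of GT/M2TAD from each native-isoform array; the Z-disc medians lie together at 0.74 to 0.78, those of cholesterol synthesis at 0.67 to 1.05 and those of oxidative phosphorylation at -0.51 from GT/M2 but 0.01 and -0.02 from the others.

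Several enzymes of cholesterol synthesis were higher, and 2 genes of cholesterol export lower, than with any native isoform. Of 24 measured genes of cholesterol and lipid synthesis and transport, 22 reached the floor, 8 were 2-fold higher and 2 lower, and all 10 were also apart from GT/M1 and GT/M6 in the same direction. Among the 46 lists, it was the 1 with 5 or more genes 2-fold apart in which every such gene lay apart from all 3 native arrays. The median was 0.67 against GT/M2, 1.05 against GT/M1 and 0.93 against GT/M6, while GT/M2 and GT/M1 differed by a median of 0.31. The pathway builds isoprenoid units from acetyl-CoA, joins them into squalene, and trims the first sterol to cholesterol, under control of the factor Srebf2 and its retention partner Insig1.

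The steps were followed in order. Hmgcs1, which makes the precursor of mevalonate, differed by 0.58 and Mvd, which forms the isoprenoid unit, by 0.78, short of the rule. Idi1, the isomerase of the isoprenoid unit, was 11.74 on GT/M2TAD, 9.71 on GT/M2, 9.26 on GT/M1 and 9.70 on GT/M6. Fdps, farnesyl diphosphate synthase, was 9.11 against 7.30, 7.15 and 7.52, with the native signals under the floor. Fdft1, which makes squalene, was 12.39 on GT/M2TAD, 1.39 above GT/M2, with 10.96 on GT/M1 and 10.91 on GT/M6. Squalene epoxidase, Sqle, was 10.50 against 8.88, 8.83 and 8.94. The 3 native signals lay close together for Fdft1, so its difference does not depend on which isoform is taken for comparison. Those of Sqle were close too, but under the floor on GT/M1 (9.33) and GT/M6 (9.14) and just above it on GT/M2 (8.82). The GT/M1 signal of Idi1 was under its floor as well. So were the GT/M1 and GT/M6 signals of Msmo1 and Insig1, given below. Downstream, Lss and Cyp51 differed by 0.63 and 0.98, Msmo1, a sterol methyl oxidase, was 10.66 against 9.14, 8.96 and 9.00, and Nsdhl, which acts on the same carbon, 13.82 against 12.45, 12.37 and 12.74. Sc5d, a late desaturase, was 14.91 against 13.20, 13.61 and 13.80, and the last enzyme, Dhcr7, differed by 0.11. Hsd17b7, a sterol reductase of the same stretch that was not on the list and was looked up after the others were seen, was 11.14 against 8.91, 9.14 and 9.14.

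Regulators and export genes were read next. Insig1 was 10.53 on GT/M2TAD, 9.28 on GT/M2, 9.32 on GT/M1 and 9.10 on GT/M6, and Srebf2 differed by -0.07. The lipid carrier Apoe was 12.00 against 14.75, 16.13 and 15.36. The exporter Abcg1 was 8.42 against 11.08, 11.96 and 11.39, whereas its relative Abca1 differed by -0.46. The carrier and 1 exporter thus lay opposite to the enzymes. On the untreated MEF array Idi1 was 12.08, Fdft1 12.75, Apoe 8.42 and Abcg1 6.28, so on these genes GT/M2TAD lay between the native isoforms and untreated cells.

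**Figure D4:**
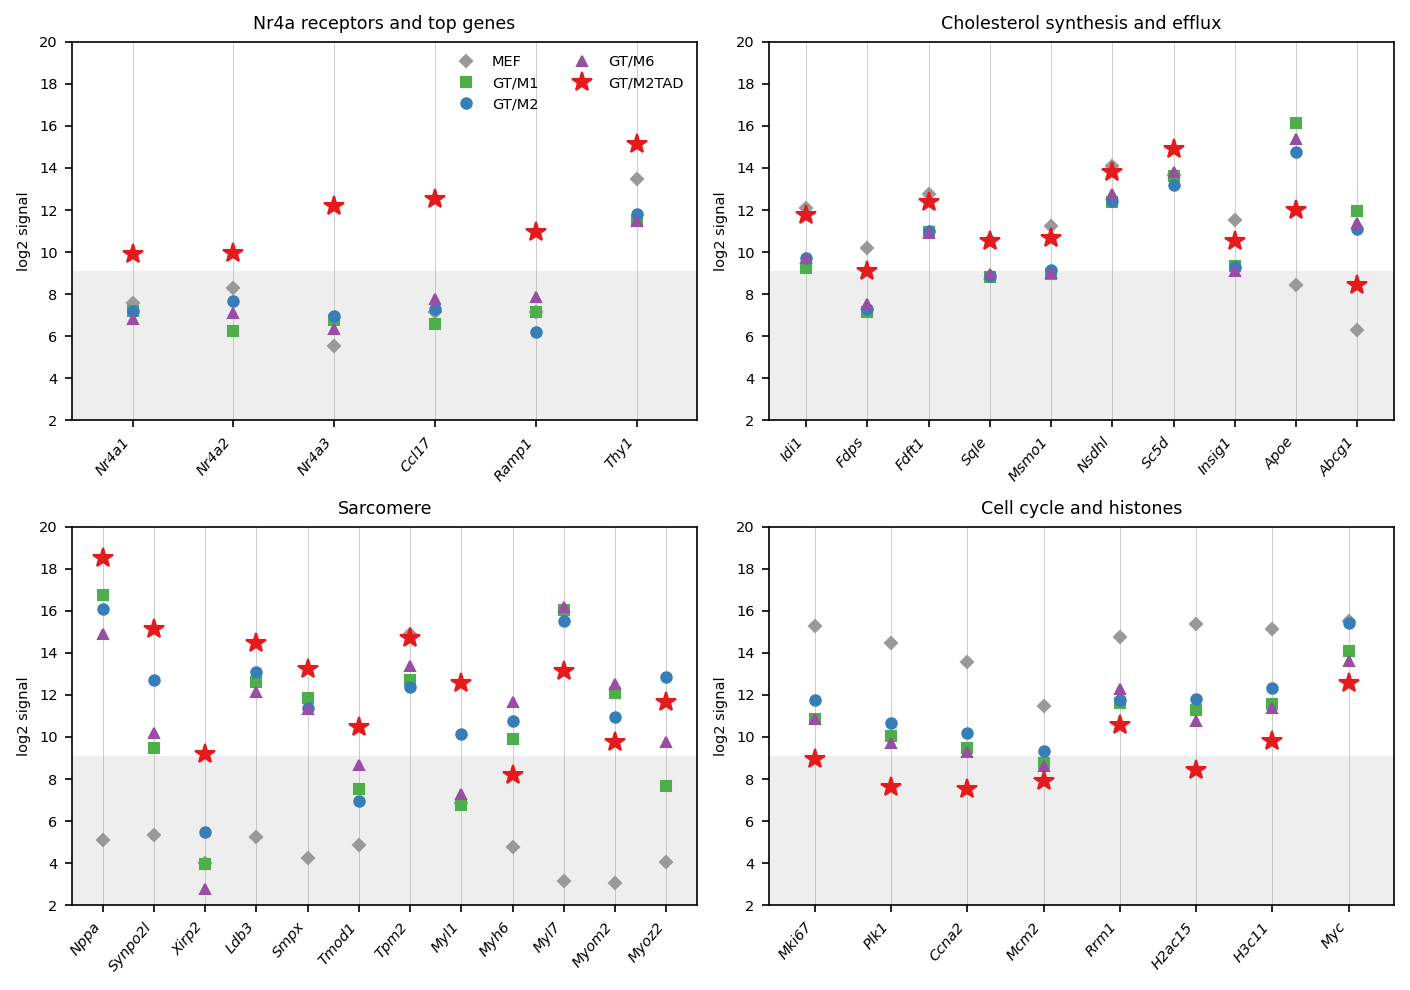
Log2 signals of selected genes on the untreated MEF array and the 4 transduced arrays, 1 point per array; the grey band lies below the higher of the GT/M2 and GT/M2TAD floors. GT/M2TAD (red star) stands above all native isoforms for the Nr4a genes and sterol enzymes, below them for Apoe, Abcg1, Myh6, Myl7 and the cell cycle genes, and between them for Myoz2.

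Proliferation genes were lower on GT/M2TAD. Of 63 measured genes of mitosis and the kinetochore, 61 differed below 0, and the median was -1.53; of the 16 at the floor, 14 were 2-fold lower and none higher. For DNA replication and nucleotide supply, 56 of 59 differed below 0, the median was -0.96, and 10 of the 14 at the floor were 2-fold lower. The 16 and 14 members all reached the floor on GT/M2, but 3 and 6 did on GT/M2TAD. Most thus passed the floor only through the array where they were high, which by itself raises the share lower among them. The part that GT/M2 has in this shows in the reference: the mitosis median was -0.99 against GT/M1 and -0.93 against GT/M6, and GT/M2 was itself 0.55 above GT/M1. For replication the medians were -0.57 and -0.51. Of the 14 and 10 lower genes, 3 and 2 were 2-fold below all native arrays. The counts move with the setting: 14 and 10 became 2 and 3 when both signals had to reach the floor, 43 and 23 with the floor at each array's median, and 7 and 2 against the mean of GT/M1, GT/M2 and GT/M6, where 1 mitosis gene was higher.

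Plk1, the polo-like kinase of mitosis, was 7.61 on GT/M2TAD, 10.68 on GT/M2, 10.03 on GT/M1 and 9.70 on GT/M6, against 14.48 in untreated MEFs. Mki67, the usual marker of cycling cells, was 8.97 against 11.77, 10.87 and 10.83, and the cyclin Ccna2 7.53 against 10.20, 9.49 and 9.27. On GT/M2TAD these 3 lay below the floor. Kif20a, Ccnb2, Racgap1 and Ube2c, which act in spindle assembly, cytokinesis and exit from mitosis, were -2.62, -2.43, -2.11 and -2.03 from GT/M2. In replication, Prim1 (primase), Rrm2 and Rrm1 (ribonucleotide reductase), and Mcm4, Mcm2 and Mcm6 (the helicase) were -2.17, -1.58, -1.16, -1.52, -1.47 and -1.34. Rrm1 and the E2f repressor E2f8 were the 2 replication members 2-fold below all native arrays by the rule, E2f8 at 10.80 against 12.01, 13.04 and 12.10. Prim1 (6.75 against 8.12 and 8.13) and Rrm2 (7.60 against 9.13 and 8.71) were over 2-fold below GT/M1 and GT/M6 too, whose signals lay under their floors. Among the mitosis genes Kif20a, Ccnb2, Racgap1, Kif2c, Cenpe and Ect2 were likewise over 2-fold below each native array, and left out by a native signal under its floor. Smc4, Kif23, Kif11, Ube2c and Nusap1 were within 2-fold of GT/M1 or GT/M6. Of 31 Cdk inhibitor and p53 target genes, 1 was higher (Gadd45g, 1.30) and 1 lower (Sesn1, -1.83), and Cdkn1a, the p21 inhibitor, differed by 0.30. Gadd45g was within 2-fold of both GT/M1 and GT/M6, and for Sesn1 GT/M2 alone stood apart.

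Clustered and linker histone genes, most of which are replication-dependent and transcribed in S phase, were chosen by symbol after their values were seen. Their counts are therefore a description. Of 57 clustered and linker histone genes, 40 reached the floor, 31 were 2-fold lower and none higher, and the median was -1.36. It was -0.89 against GT/M1 and -0.73 against GT/M6. By type, 8 of 13 H2ac, 8 of 15 H2bc, 9 of 10 H3c, 5 of 11 H4c and 1 of 8 H1f genes were lower. The H2ac genes differed most from the reference: all 8 were 2-fold below all native arrays, as were 3 of the H3c, 2 of the H4c and none of the H2bc genes. H2ac15 was 8.41 on GT/M2TAD, 11.79 on GT/M2, 11.28 on GT/M1 and 10.76 on GT/M6, and H3c11 was 9.80 against 12.32, 11.58 and 11.37. Histone genes of a type are nearly identical copies, and H3c14 and H3c15 had the same signals on GT/M2TAD (11.62 and 11.62) and on GT/M2 (13.19 and 13.19), so values of single members are uncertain and the genes are not independent.

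Mitochondrial genes showed a difference that rested on the GT/M2 array. Of 49 measured genes of oxidative phosphorylation and the citrate cycle, 43 at the floor, 44 differed below 0 and the median was -0.51, with 3 genes lower and none higher by the rule. The medians against GT/M1 and GT/M6 were 0.01 and -0.02, and GT/M2 was itself 0.52 above GT/M1. Idh2, mitochondrial isocitrate dehydrogenase, was 11.44 on GT/M2TAD and 13.19 on GT/M2, with 12.07 and 11.56 on the other arrays. Uqcrc2 and Cyc1, of respiratory complex III, were -1.26 and -1.04 from GT/M2. Fatty acid genes followed a like course, with 4 of 39 lower, 1 higher and a median of -0.45, against -0.16 and -0.02. Fabp5, a fatty acid carrier, was 6.06 on GT/M2TAD against 8.83, 7.67 and 7.75. It was over 2-fold below each, with the GT/M1 and GT/M6 signals under their floors. The beta-oxidation enzymes Acaa2, Hadh and Echs1 were -1.22, -1.19 and -1.18 from GT/M2, while the transporter Slc27a1 was 1.68. In glycolysis and glycogen metabolism 1 of 40 was higher and 3 lower, with a median of 0.00. Pdk4, which shuts pyruvate out of the mitochondrion, was 14.29 against 13.07, 12.46 and 12.54, and the lactate transporter Slc16a1 8.32 against 9.67, 9.83 and 9.51. Those 2 held against all native arrays, and Pygm (-1.51) was lower than on GT/M2. Aldoc was 7.38 against 9.08, 9.77 and 9.07, over 2-fold below each, with the GT/M6 signal under its floor.

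Fibroblast identity genes were higher than on GT/M2, yet as a group not higher than on GT/M6. Of 32 measured, 16 at the floor, 8 were higher and none lower; the median was 0.47 against GT/M2, 0.16 against GT/M1 and -0.05 against GT/M6, and 1 of the 8 was 2-fold above all native arrays. That gene was Thy1, a surface glycoprotein of fibroblasts, at 15.15 on GT/M2TAD, 11.82 on GT/M2, 11.47 on GT/M1 and 11.48 on GT/M6. All 4 signals were above the floor, and 13.49 of untreated MEFs was below that of the fusion. Pdgfrb, the Pdgf receptor, was 10.18 against 8.01, 8.75 and 9.32. The lysyl oxidases, which cross-link collagen, were lower or close to the other isoforms: Loxl3 was 10.10 against 8.21 on GT/M2 but 10.40 and 10.89 on GT/M1 and GT/M6, and Loxl1 9.43 against 8.07, 10.28 and 10.16. S100a4, Prrx2, Ddr2 and Lox were 1.92, 1.44, 1.41 and 1.08 above GT/M2.

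Matrix genes differed in both directions. Of 49 proteoglycan and matricellular genes, 6 were higher and 4 lower, with a median of -0.10. Dcn, decorin, a small leucine-rich proteoglycan that binds collagen, was 9.15 on GT/M2TAD, 13.52 on GT/M2, 15.24 on GT/M1 and 14.27 on GT/M6, close to the 8.54 of untreated MEFs. Efemp1, an elastic fibre protein, was lower as well, at 14.61 against 16.39, 16.65 and 16.69. Ogn (-2.02) and Fbln1 (-1.68) were the other 2 lower members. Ltbp1, which stores latent Tgf-beta in the matrix, was 13.30 against 11.17, 11.17 and 12.13, and the Ccn protein Ccn4 14.23 against 12.20, 11.93 and 12.97. Fbln5 was 1.96 above GT/M2 but not above GT/M6 (14.14 and 14.23). Among 41 collagen chains, 6 at the floor, Col5a2 was 1.09 and Col3a1 -1.47; Col1a1 and Col1a2, of type I collagen, differed by 0.83 and 0.86.

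Integrins and laminins, the receptors and ligands of basement membranes, had 9 higher and 1 lower of 33 measured, 20 at the floor, with a median of 0.36 against GT/M2 and -0.08 and -0.03 against GT/M1 and GT/M6. Itga7, the laminin receptor subunit of muscle, was 9.94 on GT/M2TAD and under the floor on GT/M2, GT/M1 and GT/M6, at 7.38, 6.66 and 7.33. Itga5 was 12.09 against 10.25, 8.69 and 9.45, and Itgb3 10.52 against 8.81, 8.37 and 8.48. Lama4 was 14.34 on GT/M2TAD and 12.78 on GT/M2, both well above 9.87 and 10.52. Lama2, the laminin chain of muscle basement membrane, was lower, at 10.80 against 12.40, 12.35 and 11.98. Of 47 matrix proteases and inhibitors, 6 were higher and none lower, with a median of 0.20. Adamts1, an aggrecanase, led them at 10.83 against 7.47, 6.99 and 8.54, and with Timp1 lay 2-fold above all native arrays. Adamts12, Adam9, Mmp23 and Timp2 were 1.93, 1.55, 1.11 and 1.09 above GT/M2.

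Stress, immune and chromatin lists held small numbers of genes 2-fold apart, and of these lists the antioxidant one had the largest share lower. Of 27 protein folding genes, 24 at the floor, the small heat shock proteins Hspb1 (13.50 against 11.54, 10.13 and 10.36) and Hspb6 (1.31) were higher, both also against GT/M1 and GT/M6, and the mitochondrial chaperonin Hspd1 was -1.17. Among 38 antioxidant and detoxification genes, 23 at the floor, 4 were lower (10.5%) and 1 higher (2.6%). Of the lower ones, Mgst1 (11.27 against 13.19, 13.41 and 12.89) lay 2-fold below all native arrays. Of 43 interferon response genes, 7 at the floor, Irgm1 (2.39) and Ifi27 (2.23) were higher; the list median was 0.34 against GT/M2 but -0.38 and -0.69 against GT/M1 and GT/M6. Of 37 amino acid and integrated stress genes 2 were higher and 2 lower, of 22 complement genes Cd59a alone was higher (1.11), and none of 13 creatine and oxygen-binding genes was apart. Of 31 acetyltransferases and deacetylases, 19 at the floor, Hdac9, a class IIa deacetylase that binds Mef2 factors, was 9.84 on GT/M2TAD and under the floor on the native arrays, at 8.16, 8.28 and 8.09. Kat2a, the acetyltransferase Gcn5, was -1.04, and the median of the list was -0.11.

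Several of the leading genes belonged to none of these lists. Akap6, which anchors protein kinase A at the nuclear envelope of muscle, was 11.13 on GT/M2TAD, 7.74 on GT/M2, 7.25 on GT/M1 and 7.31 on GT/M6. Ache, acetylcholinesterase, was 9.80 against 6.57, 7.07 and 6.74; it had more than 1 probe set, and with their mean it was no longer counted. The membrane repair gene Dysf was 9.86 against 6.56 on GT/M2 and 8.34 on GT/M6. Clic5, an actin-associated channel-like protein, and the tetraspanin Tspan2 were lowest on GT/M2 among the 4 transduced arrays: Clic5 read 13.92 against 10.58, 12.80 and 12.79, and Tspan2 12.34 against 8.51, 9.95 and 10.55. On the lower side, Cbln2, a secreted synapse organiser, had the largest difference, with 4.37 on GT/M2TAD and 10.23 on GT/M2, but 6.79 and 6.90 on GT/M1 and GT/M6, under their floors. Most of that difference is therefore between GT/M2 and the other isoforms. Vsnl1, a neuronal calcium sensor also found in heart, was 7.22 against 11.34, 11.50 and 11.99, and Rpp25, a subunit of ribonuclease P, 8.17 against 12.19, 11.11 and 10.72. The probe set annotated Mir675 was 10.46 against 14.15, 14.90 and 14.25, and what precursor it reads is not known here. Gpr165, Hsd3b6, Sphkap and Ston2 were -4.06, -3.50, -3.26 and -3.26 from GT/M2, with every GT/M2TAD signal under the floor. Their GT/M1 and GT/M6 signals lay under the floors as well. Gpr165 was 4.83 on GT/M2TAD and 8.89 on GT/M2, but 6.04 on GT/M1 and 5.68 on GT/M6, and so within 2-fold of GT/M6. Hsd3b6, Sphkap and Ston2 were over 2-fold below both GT/M1 and GT/M6.

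Untreated MEFs were set against GT/M1 and GT/M6, arrays that had no part in choosing the 384 and 362 genes. Of the 5702 genes at the floor, 695 (12.2%) were at least 2-fold higher in MEFs than on both GT/M1 and GT/M6, and 1427 (25%) at least 2-fold lower. Among the 384 genes higher with the fusion the numbers were 100 (26%) and 117 (30.5%), and among the 362 lower genes 120 (33.1%) and 122 (33.7%). Genes at which MEFs differed from GT/M1 and GT/M6 were thus a larger share of both groups than of all genes at the floor, a description with no test.

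Most markers of other cells that the cultures could hold were under the floor on both arrays. Flt1, Krt19, Tubb3 and Ncam1 were above it on both, and Upk1b and another endothelial gene on GT/M2 alone. None of 13 macrophage and leukocyte, 9 adipocyte or 11 chondrocyte and bone genes reached the floor on either array, nor did the defining markers Ptprc, Pecam1, Cdh5 and Epcam, whose signals on the 2 arrays lay between 2.89 and 4.57. Of 15 endothelial genes 2 reached the floor and Flt1 was the 1 that was apart. Among 18 epithelial and mesothelial genes Krt19 was 10.46 on GT/M2TAD and 12.70 on GT/M2, with 10.22 and 9.05 on the other arrays, and Upk1b 6.61 against 8.97, 9.87 and 10.49. Of 15 neural genes none was 2-fold apart, but Tubb3 was 9.92 on GT/M2TAD and 9.51 on GT/M2, and Ncam1 14.53 and 13.98, all above the floor. Of the cardiac markers, Tnnt2 (17.67 and 16.83), Actc1 (13.93 and 14.03), Ryr2 (9.89 and 10.36) and Nppa reached the floor on both arrays. Myh6 was under it on GT/M2TAD and Actn2 on GT/M2. Of the fibroblast markers, Vim (18.81 and 18.78), Col1a1 and Col1a2 were within 2-fold. Thy1 and Postn were higher and Dcn lower on GT/M2TAD. Which share of the cells carried each marker is not known from bulk RNA. The part of cell composition in the differences was not tested.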

How the data were processed

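RNA of 7 cultures was hybridised to Affymetrix Clariom S mouse arrays, 1 array a group. The deposited values are log2 signals that the authors obtained with Affymetrix Expression Console 1.4, per the submitters' processing notes, by the SST-RMA method, per the series text. Its settings and the genome build are not given in the sources used here. Normalization across arrays can remove a difference common to most genes.

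Of 28846 probe sets, 19572 had 1 gene symbol, covering 19505 genes. For 55 genes with several sets the set with the highest mean was used. The 9274 sets without a symbol entered no gene count, and 5222 of them, negative-control probes, gave the floor. Differences were computed in Python 3.11.15 with pandas 2.3.3, and the scripts were tested on simulated data. Precision is limited by the number of arrays.

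The comparison and the 46 gene lists (1452 genes, 1343 measured, 109 not named) were chosen with earlier results of these data known. Named genes were the 15 highest and 15 lowest differences without predicted genes, the 10 highest and 10 lowest against all 3 native arrays, the 5 largest where GT/M2 alone stood apart, every list member 2-fold apart, the transduced factors, list members central to a group, and genes with a promoter match. Of the 212 genes so named, those not printed are within the counts. Hsd17b7 and the histone symbols were added after their values were seen. Alternatives were other normalizations, centrings, floors, probe set rules and comparators. The titles of the siRNA samples name isoform 2 and their other labels the fusion, so those arrays entered no comparison.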

Additional observations from a re-analysis of the deposited data

How the results depend on the processing

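The counts depended mainly on the floor. With the floor at each array's median, 578 genes were higher and 650 lower than on GT/M2, 213 lower than all 3 native arrays, and 106 had GT/M2 alone apart. With no floor these were 727, 775, 234 and 117, and 271 were higher than all 3. Requiring both signals at the floor, an alternative added after seeing the data, left 279 higher and 206 lower, 84 and 60 against all 3, and 19 with GT/M2 alone apart. With the mean of GT/M1, GT/M2 and GT/M6 as comparator, 336 genes were higher and 202 lower, and 410 of the 746 genes were counted in the same direction. Over members at the floor, the mitosis median was -1.94 (16 at the floor on GT/M2 and 3 on GT/M2TAD) and the sarcomere median 0.81. Against that mean the sign turned for the interferon list (-0.29), Grem1 (-0.53), Loxl1 (-0.076), Myoz2 (1.56), Scn3b (0.24) and Sln (-1.23), because GT/M1 and GT/M6 lay on the other side of GT/M2TAD. Under quantile normalization 739 of the 746 genes were counted again in the same direction, under median centring 699, under level-dependent centring 717 and with the mean of several probe sets 744. Median centring moved the share of higher genes from 51.5% to 57.7%. Of 200 named genes that met the rule, 0 missed it under quantile normalization, 6 under median centring, 7 under level-dependent centring, 1 (Ache, at 2.27) with the mean of probe sets and 75 with the other comparator. No paired analysis was possible because each group had 1 array and the labels gave no replicate numbers.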

Other observations

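The 2 arrays of cells given small interfering RNA (siRNA), against Ep300 (siEp300) or as a control (siCtrl), were left out of the comparison, because their labels do not settle which form of Mef2c they carried. Some of the leading genes, given as examples, read closer to GT/M2TAD than to GT/M2 on them. Nr4a3 was 11.80 on siCtrl and 12.20 on siEp300, against 12.17 on GT/M2TAD and 6.98 on GT/M2. Ccl17 was 14.48 and 15.03, against 12.52 and 7.29, and so over 2-fold above GT/M2TAD as well. Corin was 4.97 and 5.40, against 6.03 and 10.48, under the floor on all but GT/M2. C3ar1 did not follow, at 4.98 and 5.40 against 9.51 on GT/M2TAD and 5.73 on GT/M2, nor did Thy1, at 12.89 and 12.62 against 15.15 and 11.82. Col1a1, at 15.83 and 15.82, was higher than on either GT/M2TAD (13.61) or GT/M2 (12.77).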
